A study of Danio rerio with 6 samples.

Results

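The genes described here are those of antioxidant defence, of the Nrf2 pathway and of the hypoxia pathway in the dissected gut of zebrafish larvae (Danio rerio), compared between transected and control guts. They were chosen by symbol: every row of the count table whose symbol belongs to the peroxiredoxins, glutathione peroxidases, superoxide dismutases, catalase, thioredoxins and their relatives, glutaredoxins, methionine sulfoxide reductases, heme oxygenases, heavy-chain ferritins, glutamate-cysteine ligase, glutathione reductase, nqo1, mt2, the Nrf2 (nfe2l) and Keap1 families, sqstm1, the HIF-alpha genes, vhl or the egln hydroxylases was taken. This gave 70 of the 15419 rows, of which 64 had enough counts to be tested among 11466 genes. All larvae were wild type (labelled WT) and 5 days post-fertilization, where the labels leave unsaid which step that age refers to. The 3 libraries labelled cut_wt, called transected here, came from guts cut through completely 24 h earlier. The 3 labelled wt carry no mention of transection and serve as uncut controls. Each library pooled 10 to 15 guts, so that the spread between libraries is a spread between pools and not between larvae, and the labels do not say whether the pools of a group came from separate clutches.

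Cells remove superoxide with superoxide dismutases, and the hydrogen peroxide formed is removed by catalase, glutathione peroxidases and peroxiredoxins, which draw their electrons from glutathione or thioredoxin. In the resting cell the adapter Keap1 holds the transcription factor Nrf2 and hands it to a ubiquitin ligase. When oxidants or electrophiles modify Keap1, Nrf2 escapes and induces genes for glutathione synthesis, quinone reduction and heme breakdown. In a parallel pathway, egln prolyl hydroxylases use oxygen to mark HIF-alpha proteins for the ubiquitin ligase subunit Vhl, so that HIF accumulates when oxygen falls. These are background statements on protein activity, which transcript levels do not measure.

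Total counts lay between 21525093 and 25131242 per library. Members took 0.864% to 1.04% of a library's counts, and 64 to 66 of the 70 had at least 1 count in each library. On the first principal component of all genes, with 47.0% of the variance, both replicate 1 libraries lay at the low end (-33.1 transected, -44.3 control) and the other 4 from 0.0037 to 48.5. Control replicate 2, at 48.5, lay farther from 0 than either replicate 1 library. The second component, with 23.6% of the variance, separated the groups, with transected libraries from -29.5 to -8.72 and controls from 17.8 to 23.8. The members whose call or value changed most without the replicate 1 libraries are given both ways. Most enterocyte markers were abundant (summed level 43792 to 59579 CPM, the counts scaled to a common library size, over 16 genes), although fabp2 stood at 0.136 to 0.423 CPM. Liver, pancreas, muscle and skin transcripts were present too: all 13 hepatocyte markers tested had negative log2 fold changes, while all 13 epidermis and all 10 erythrocyte markers tested had positive ones. The part of these tissues in the results below was not tested.

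The clearest differences among the members were a higher level of the glutathione peroxidase gene gpx1b and a lower level of the extracellular superoxide dismutase gene sod3a in transected guts. DESeq2 called both, 1 member higher and 1 lower, where it called 0.846% of all genes higher and 0.584% lower (1.43% in all). With the replicate number added as a block, DESeq2 called the same pair of members, where 1.43% of all genes were higher and 1.08% lower (2.51% in all). edgeR, the main test, called 0 of the 64 members in either direction at an adjusted p under 0.05 over all genes, against 0.0174% of all genes (plekhs1 and LOC100535095, both higher). The blocked edgeR fit also called 0 members, against 0.0262% of all genes higher and 0.00872% lower (0.0349% in all), and limma-voom called 0 members and 0 genes.

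At an unadjusted p under 0.05, edgeR had 5 members higher and 5 lower (15.6% of those tested), against 4.32% and 3.55% of all genes (7.87% in all). limma-voom also had 5 and 5, against 4.31% and 3.57% of all genes (7.88% in all). With the replicate block, edgeR had 5 members higher and 7 lower (18.8%), against 6.99% and 6.11% of all genes (13.1% in all). The share over all genes thus rose more with the block than that of the members. Among the 5 higher is gpx7, which passed the filter on low counts only through its transected libraries. A stricter filter, of at least 1 CPM in 3 libraries, left it out and gave 4 higher and 5 lower of 63 members in edgeR, against 4.39% and 3.54% of all genes (7.93% in all). For 13 of the 64 members (20.3%) the 3 transected libraries lay wholly to one side of the 3 controls. Of these, 6 lay above, gpx7 included, and 7 below, against 7.48% and 6.38% of all genes tested (13.9% in all).

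Of the 64 members tested, 48 had a negative log2 fold change (45 with library size scaling), where 49.5% of all genes did. Their median log2 fold change was -0.13, against 0.0026 over all genes. Without control replicate 2 or 3, 40 and 41 were negative (48.6% and 49.7% of all genes), with member medians of -0.091 and -0.092. The groups were not separate in this shift. The median log2 deviation of the members was -0.061 in control replicate 1, below transected replicates 1 (-0.022) and 3 (0.0060). All tested superoxide dismutase and catalase genes (4), nfe2l, keap1 and sqstm1 genes (7) and methionine sulfoxide reductases (5) were negative under each scaling tried, in DESeq2 and in limma-voom. So were gclc, gclm, gsr and nqo1 (4), grouped here as classic Nrf2 targets. The signs of gpx4b, glrx3, txndc15 and fth1b turned in at least 1 of these. The group of 4 is not a full list of Nrf2 targets. Outside it, txn (0.36) and fth1a (0.062) were among the 16 members with positive values in edgeR. Members are not independent of each other, so these counts describe the list and carry no test. In bulk tissue, fewer cells of a type and less RNA per cell cannot be told apart, and this holds for each difference below. The plot of fold changes by family shows where the members departed from this small shift.

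**Figure D1:**
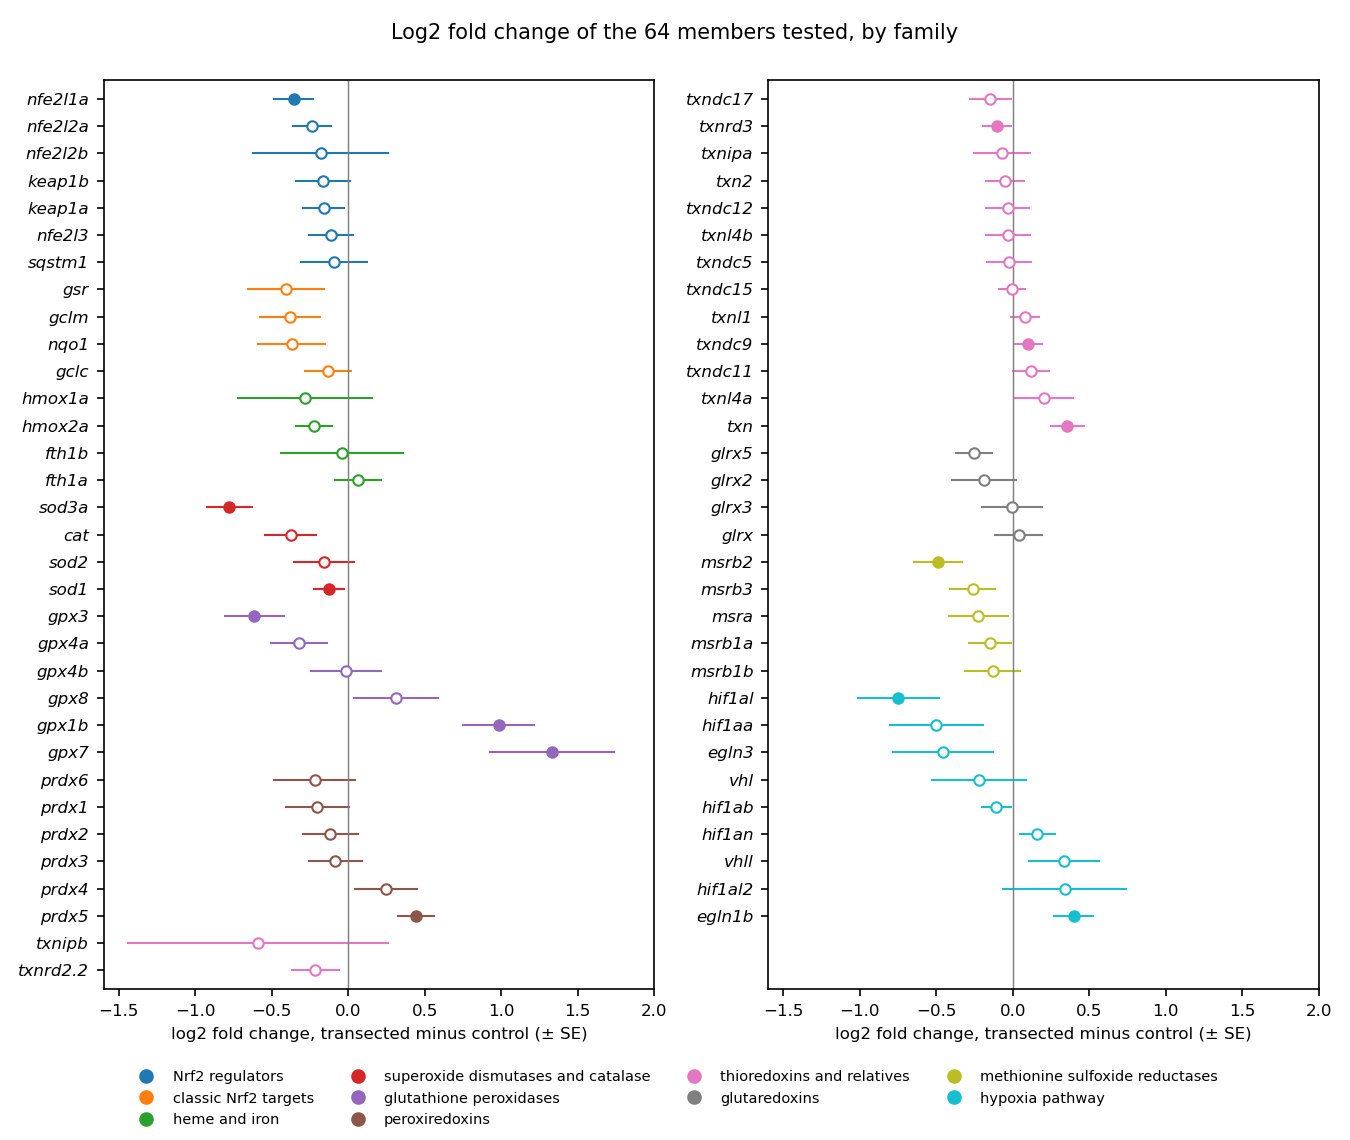
Log2 fold change (transected minus control, horizontal axis) with its standard error for the 64 members tested, coloured by family. Filled points are members whose 3 transected libraries lay wholly above or below the 3 controls; the highest values are those of gpx7 (1.33) and gpx1b (0.98), the lowest those of sod3a (-0.78) and hif1al (-0.75).

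Among the enzymes that remove peroxides, gpx1b stood out. It is a zebrafish copy of the glutathione peroxidase gene GPX1, whose enzyme reduces hydrogen peroxide in the cytosol with glutathione. Its level was 171, 300.2 and 302 CPM in transected replicates 1, 2 and 3 and 116, 133 and 142 CPM in the controls. Every transected library thus lay above every control, with transected replicate 1 the nearest to them. The log2 fold change was 0.98 (SE 0.24, a fold of 1.98), with an adjusted p of 0.413 in edgeR and 0.0181 in DESeq2. It was higher in each of the 3 pairs of equal replicate number, by 0.56, 1.17 and 1.09 on the log2 scale. Over 15 alternatives its log2 fold change ranged from 0.85 to 1.197 and its adjusted p from 0.000132 to 0.994, and 3 of them called it higher: DESeq2, DESeq2 with the replicate block and edgeR without both replicate 1 libraries (adjusted p = 0.00799). The row of its sister copy gpx1a was listed at 0 in all 6 libraries.

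Most macrophage markers lay higher alongside gpx1b. Of the 9 tested, 7 lay wholly higher in transected guts, against 7.48% of all genes tested. The other 2 had negative log2 fold changes. The 11 markers with a row of counts summed to 124, 127 and 162 CPM in transected and 73.7, 82.3 and 66.5 CPM in control guts, with mpeg1.1 and ccl34b.1 at 0. Replicate 3 was the highest transected library both in this sum and for gpx1b. Among the controls, replicate 3 was the lowest in the sum but the highest for gpx1b. Of 9 genes listed as neutrophil markers and tested, 7 were positive (median log2 fold change 1.02), although 1 gene, cpa5, made up most of their summed level. That sum ranked the libraries of each group in the same order as the sum of the exocrine pancreas markers. Whether the cpa5 level came from neutrophils was not tested. The part of macrophages and neutrophils in the gpx1b difference was not tested.

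Other glutathione peroxidases went different ways. gpx3, which encodes a secreted enzyme of plasma and extracellular fluid, was at 22.6, 28.3 and 28.6 CPM in transected guts and 44.9, 29.8 and 47.0 CPM in controls. The groups did not overlap, although control replicate 2 lay close to the transected libraries, and the difference did not pass (log2 fold change -0.61, SE 0.20, adjusted p = 0.520 in edgeR and 0.226 in DESeq2). gpx7, an endoplasmic reticulum peroxidase, was scarce at 0.999, 0.541 and 0.776 CPM against 0.405, 0.279 and 0.226 CPM, from 5 to 26 counts per library. It passed the filter only through the transected libraries, where it was high, so its log2 fold change of 1.33 is given as a description with no test. gpx2, whose mammalian counterpart is the gastrointestinal form, did not reach the filter: its row held 9, 1 and 5 counts in transected libraries and 0 in each control. Against an assumed floor of 3 counts over the control group the ratio was 4.78, with no allowance for sampling error in the transected counts. The exact two-sided permutation p of 0.1 is the smallest that 3 against 3 libraries allow. Any row so separated has this value, so it cannot serve as a test here. gpx9 had 1 count in all.

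The phospholipid hydroperoxide peroxidases gpx4a and gpx4b, whose mammalian counterpart protects membranes from ferroptosis, had overlapping groups. gpx4a stood at 1702, 1085 and 1197 CPM in transected guts and at 1639, 1778 and 1562 CPM in controls. Transected replicate 1 lay among the controls and the other 2 below them, and without both replicate 1 libraries the log2 fold change was -0.56 instead of -0.32 (adjusted p = 0.0689 and 0.761 in edgeR). gpx4b differed little between groups next to the spread of its libraries, with means of 261 ± 41.4 and 263 ± 72.7 CPM (mean ± SD over the 3 libraries of each group, as in the rest of the text).

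**Figure D2:**
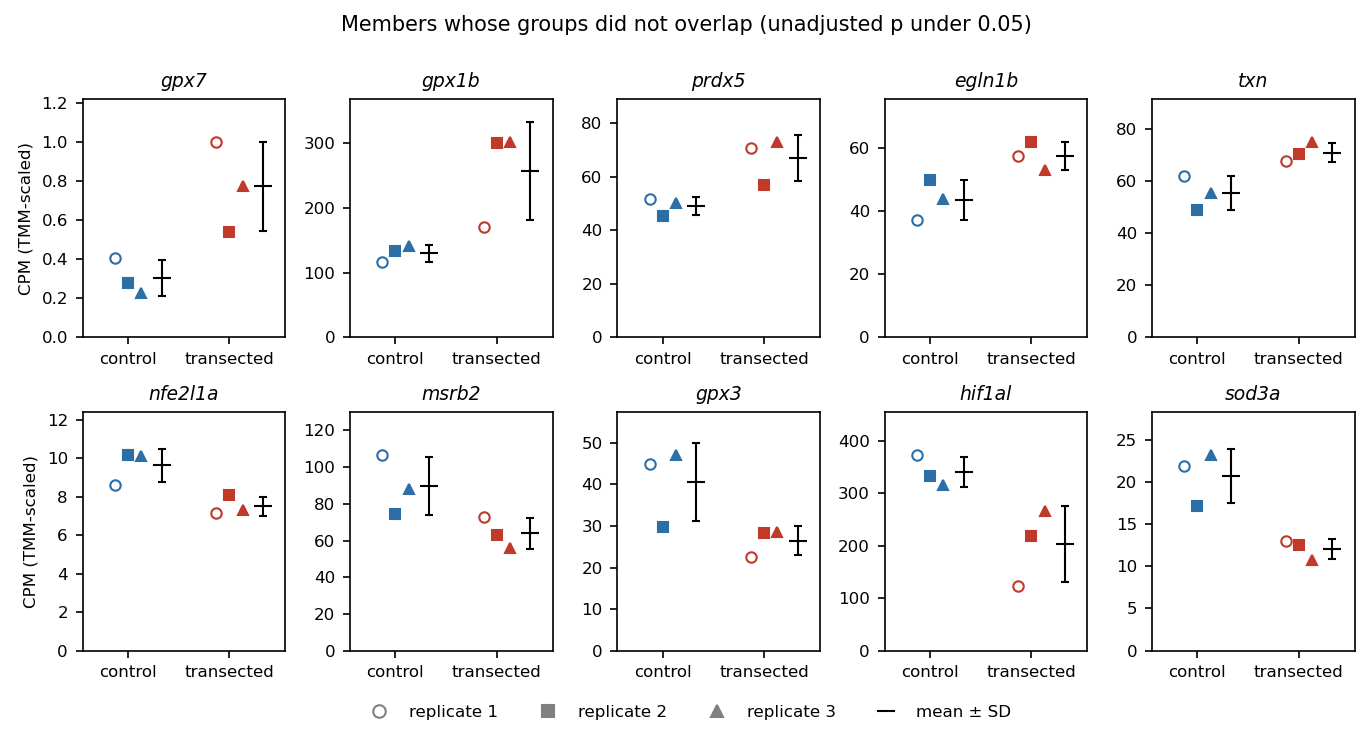
Level in CPM (vertical axes, each from 0) in the 3 control and 3 transected libraries for the 10 members whose groups did not overlap and whose unadjusted p in edgeR was under 0.05; symbols give the replicate number and the bar the mean ± SD. gpx7, gpx1b, prdx5, egln1b and txn lay higher in all transected libraries, nfe2l1a, msrb2, gpx3, hif1al and sod3a lower. gpx7 passed the filter on low counts only through its transected libraries, so its panel is a description with no test.

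Superoxide dismutases and catalase were all on the lower side. sod3a encodes the extracellular superoxide dismutase. It was measured at 12.99, 12.5 and 10.7 CPM in transected guts and 21.9, 17.1 and 23.1 CPM in controls. No transected library reached the lowest control. The log2 fold change was -0.78 (SE 0.15), with an adjusted p of 0.342 in edgeR, 0.00757 in DESeq2 and 0.0274 in DESeq2 with the replicate block. Across the 15 alternatives it lay between -0.90 and -0.69, with adjusted p from 0.00757 to 0.994, and the 2 DESeq2 fits were the ones that called it lower.

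Catalase, the peroxisomal enzyme that splits hydrogen peroxide, was at 574, 425 and 391 CPM in transected guts and 641, 550.5 and 614 CPM in controls. Transected replicate 1 lay within the control range and the other 2 below it (log2 fold change -0.38, SE 0.17, adjusted p = 0.666 in edgeR). Without both replicate 1 libraries the value was -0.52, which did not pass either (adjusted p = 0.0641 in edgeR). sod1, the cytosolic dismutase, had closely spaced libraries at 371 ± 12.7 against 406 ± 25.2 CPM. Its groups did not overlap, with 379 CPM in the highest transected and 382 CPM in the lowest control library, but the log2 fold change was only -0.13. sod2, the mitochondrial form, overlapped at 100.3 ± 10.8 against 112 ± 27.7 CPM.

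Hepatocyte markers lay lower as well, alongside the secreted enzymes of gpx3 and sod3a. Of the 13 tested, 0 had groups that did not overlap. Their median log2 fold change was -0.63, and their summed level was 12560, 6729 and 7352 CPM in transected and 20194, 8621 and 14558 CPM in control guts. Control replicate 2, the lowest control in this sum, was also the lowest control for gpx3 and sod3a. The highest control differed: it was replicate 1 in the sum and replicate 3 for both genes. Transected replicate 1 was the highest transected library in the sum and for sod3a, but the lowest for gpx3. The part of liver tissue in these differences was not tested.

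The 6 peroxiredoxins, which reduce peroxides through a reactive cysteine, split by member. prdx5, found in mitochondria and peroxisomes, was at 70.6, 56.99 and 72.8 CPM in transected and 51.7, 45.1 and 50.3 CPM in control guts. The groups did not overlap, and the log2 fold change of 0.45 (SE 0.12) did not pass (adjusted p = 0.468 in edgeR and 0.186 in DESeq2). prdx4, of the endoplasmic reticulum, had the only other positive value, 0.25, with overlapping libraries. The cytosolic prdx1 and prdx2, mitochondrial prdx3 and prdx6 had log2 fold changes from -0.22 to -0.09, all smaller than their standard errors.

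prdx2 was at 1135, 759 and 802 CPM in transected and 1079, 956 and 891 CPM in control guts, so that the replicate 1 library was the highest of each group. It is known as an abundant protein of red blood cells. Erythrocyte markers summed to 412, 176 and 172 CPM in transected and 170.1, 173 and 116 CPM in control guts, with hbaa1, hbba1 and gata1a at 0. Their part in the prdx2 level was not tested.

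In the thioredoxin system, the cytosolic thioredoxin row txn was higher in every transected library. This symbol is an older name in the RefSeq table, listed there for the gene now called txnb and, in capitals, for txna, so which copy the row holds is not certain. It stood at 67.7, 70.3 and 75.0 CPM in transected guts and 61.9, 48.8 and 55.5 CPM in controls, a log2 fold change of 0.36 (SE 0.11) that did not pass (adjusted p = 0.515 in edgeR and 0.339 in DESeq2). Mitochondrial txn2 overlapped at 49.6 ± 3.85 against 51.4 ± 7.18 CPM. The thioredoxin reductase gene txnrd3, for which the RefSeq table gives txnrd1 as an older name, was the member with the smallest spread between libraries of a group (SD 0.06 on the log2 scale). It lay at 498, 552 and 538 CPM in transected and 563, 569 and 574 CPM in control guts, without overlap and with a log2 fold change of -0.10. txnrd2.2 overlapped, at -0.22.

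txnipb, a copy of the gene for the thioredoxin-binding protein Txnip, was the member that varied most. Its libraries held 11.5, 2.26 and 4.57 CPM in transected guts and 16.9, 1.81 and 8.79 CPM in controls, with the replicate 1 library highest and the replicate 2 library lowest in each group. The groups differed by less than this spread (log2 fold change -0.59, SE 0.85, adjusted p = 0.926 in edgeR). The other copy, txnipa, was steadier at 313 ± 45.9 against 328 ± 68.7 CPM. The 9 thioredoxin-domain and thioredoxin-like members (the txndc and txnl genes) had log2 fold changes from -0.15 to 0.20. Of these, txndc9 alone had groups that did not overlap, at 18.8 to 20.8 against 17.6 to 18.5 CPM.

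Glutaredoxins, which reduce protein disulfides with glutathione, overlapped for all 4 members. The lowest value was that of glrx5, a mitochondrial protein of iron-sulfur cluster assembly, at 28.1, 30.6 and 28.2 CPM in transected and 29.3, 36.1 and 38.4 CPM in control guts (log2 fold change -0.25, SE 0.13). Methionine sulfoxide reductases repair oxidised methionine in proteins, and all 5 members had negative values. msrb2, a mitochondrial form, was at 72.7, 62.8 and 56.1 CPM in transected and 106, 74.6 and 88.3 CPM in control guts. Its groups did not overlap, with control replicate 2 nearest the transected libraries, and its log2 fold change of -0.49 (SE 0.16) had an adjusted p of 0.534 in edgeR and 0.268 in DESeq2. msra, msrb1a, msrb1b and msrb3 overlapped, at -0.26 to -0.13.

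The sensor and transcription factor of the Nrf2 pathway were present in 2 copies each. nfe2l2a, the main zebrafish Nrf2 gene, was at 232, 195 and 175 CPM in transected and 241, 232 and 238 CPM in control guts. Transected replicate 1 lay inside the control range, and the other 2 transected libraries lay below it. The log2 fold change was -0.24 (SE 0.13, adjusted p = 0.740 in edgeR). It was -0.35 without both replicate 1 libraries (adjusted p = 0.112 in edgeR), -0.37 without transected replicate 1 alone and -0.15 without transected replicate 3.

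nfe2l2b, the other copy, behaved differently between the replicate numbers. It was at 109, 36.1 and 39.5 CPM in transected and 55.1, 73.0 and 81.7 CPM in control guts. Transected replicate 1 was the highest library of the 6 and control replicate 1 the lowest control, so that the pairs gave log2 differences of 0.99, -1.01 and -1.05. Over all 6 libraries the log2 fold change was -0.18 (SE 0.45, adjusted p = 0.965 in edgeR). Without both replicate 1 libraries it was -1.04 and passed (adjusted p = 0.0127 in edgeR). Without transected replicate 2 or transected replicate 3 the sign turned, to 0.09 and 0.06.

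keap1b, a copy of the sensor gene, had the same replicate 1 pattern at 89.3, 59.25 and 58.7 CPM in transected and 71.2, 78.9 and 82.5 CPM in control guts. Its log2 fold change was -0.17 with all libraries and -0.46 without both replicate 1 libraries, where it passed in edgeR (adjusted p = 0.897 and 0.0472). Leaving out transected replicate 1, 2 or 3 alone gave -0.40, -0.066 and -0.060. keap1a did not show this pattern, at 74.1, 79.6 and 84.8 against 73.3, 100.2 and 93.3 CPM, a log2 fold change of -0.16 (SE 0.14). This was -0.28 without control replicate 1 and -0.067 without control replicate 2. sqstm1, whose product p62 is an autophagy receptor that binds Keap1, was at 397, 288 and 328 CPM in transected and 258, 409.8 and 412 CPM in control guts. Its replicate 1 libraries again pointed opposite to the others, and its log2 fold change of -0.09 became -0.43 without them (adjusted p = 0.0811 in edgeR).

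**Figure D3:**
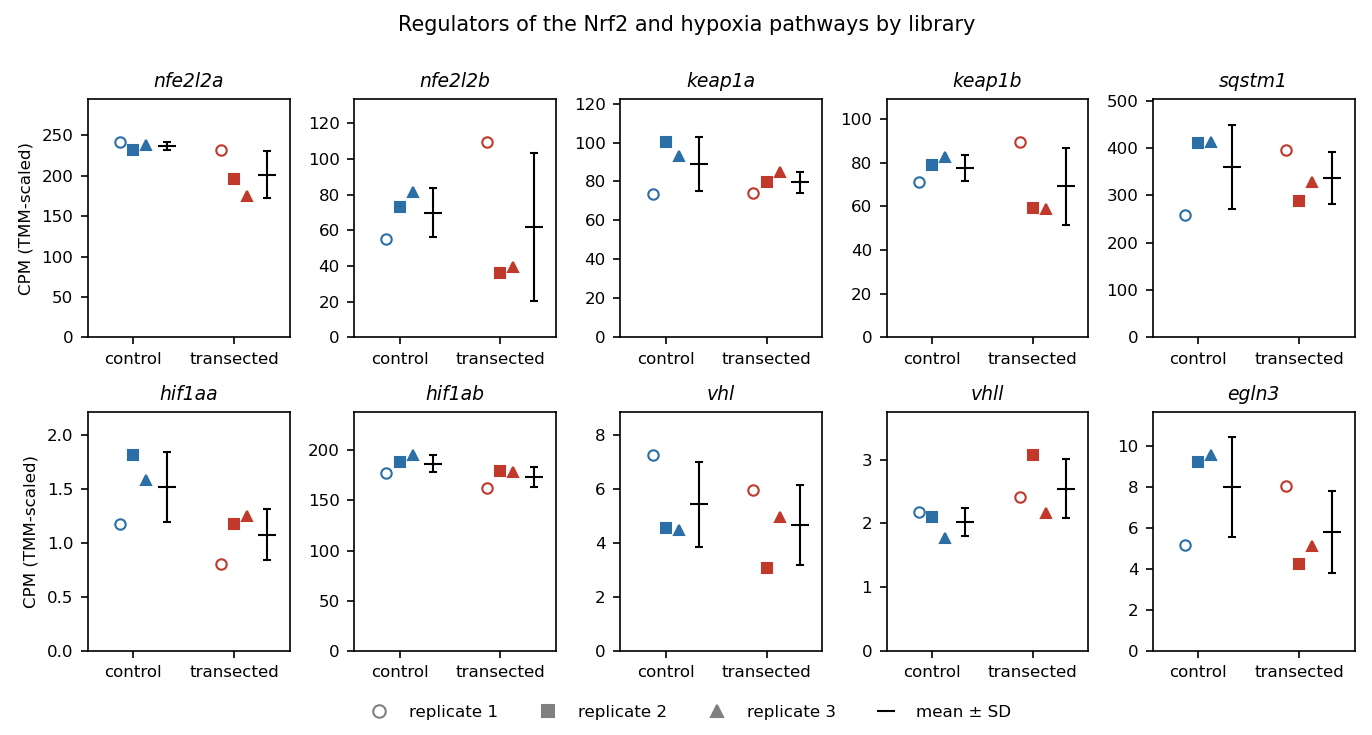
Level in CPM (vertical axes, each from 0) of 10 regulators in each library, control at left and transected at right; symbols give the replicate number and the bar the mean ± SD. In nfe2l2b, keap1b, sqstm1 and egln3 the open circle of replicate 1 is the highest transected and the lowest control library, while nfe2l2a, hif1aa and hif1ab do not show this.

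The related factor gene nfe2l1a, whose mammalian counterpart controls proteasome genes, was at 7.15, 8.08 and 7.29 CPM in transected and 8.62, 10.1 and 10.1 CPM in control guts. The groups did not overlap (log2 fold change -0.36, SE 0.14, adjusted p = 0.574 in edgeR). nfe2l3 overlapped at 27.6 ± 2.36 against 29.8 ± 5.29 CPM, and nfe2l1b was listed at 0 in all libraries. A row at 0 may reflect how reads were assigned to genes, and whether copies such as keap1a and keap1b shared reads was not examined.

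The 4 members grouped here as classic Nrf2 targets are not a full list, with hmox1a given among the heme genes. All 4 had negative log2 fold changes, from -0.41 to -0.13. Of these, 0 passed in edgeR or DESeq2 with all 6 libraries. gclm, the modifier subunit of the enzyme that limits glutathione synthesis, was at 44.4, 32.4 and 34.5 CPM in transected and 37.1, 49.4 and 58.6 CPM in control guts. The groups overlapped through their replicate 1 libraries, and without these the log2 fold change was -0.70 instead of -0.38 and passed in edgeR (adjusted p = 0.0444). gclc, the catalytic subunit, was even across transected libraries at 189.6 ± 3.84 CPM and spread wider in controls at 208 ± 39.4 CPM. gsr, the glutathione reductase gene, was lower in the transected library of each pair, at 69.6, 87.0 and 109 against 81.1, 124 and 147 CPM. The same held for the quinone reductase gene nqo1, at 223, 213 and 265 against 229, 274 and 404 CPM. Neither passed (adjusted p = 0.776 and 0.768 in edgeR, 0.192 and 0.541 in DESeq2 with the replicate block).

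The 4 heme and iron members tested all had overlapping groups. hmox1a, the inducible heme oxygenase gene and a standard readout of Nrf2 activity, was at 75.3, 29.2 and 44.4 CPM in transected and 94.2, 46.5 and 40.8 CPM in control guts. The replicate 1 library was the highest in each group, and the log2 fold change was -0.28 (SE 0.44, adjusted p = 0.932 in edgeR). hmox2a, the constitutive form, overlapped at 45.5 ± 3.80 against 53.2 ± 6.19 CPM. The ferritin heavy-chain genes, which store iron, also overlapped, with fth1a at 892 to 1131 against 814 to 1084 CPM and fth1b at 6.27 to 11.8 against 4.60 to 12.7 CPM. The metallothionein row mt2 held 1 count in all 6 libraries together, at a floor of 0.115 to 0.140 CPM for 3 counts in a library.

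In the hypoxia pathway the HIF-alpha gene hif1al was lower in every transected library. RefSeq gives Hif-3alpha as its synonym. It stood at 124, 218 and 266 CPM in transected guts and 372, 332 and 316 CPM in controls. Transected replicate 1 was the lowest library and its control partner the highest, so that the pairs differed by -1.58, -0.61 and -0.25 on the log2 scale. The log2 fold change of -0.75 (SE 0.27) did not pass (adjusted p = 0.570 in edgeR and 0.241 in DESeq2) and was -0.43 without both replicate 1 libraries. Over the 15 alternatives it ranged from -0.99 to -0.43.

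hif1ab, a zebrafish copy of HIF-1 alpha, varied little, at 162, 179.8 and 178 CPM in transected and 178, 188 and 195 CPM in control guts (log2 fold change -0.11, SE 0.10). The other HIF-alpha rows were scarce. hif1aa was at 0.807, 1.17 and 1.25 against 1.17, 1.81 and 1.58 CPM, hif1al2 at 1.73, 1.04 and 1.38 against 1.66, 0.930 and 0.679 CPM, and both overlapped. epas1b, a HIF-2 alpha gene, was listed at 0 in all libraries.

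Of the oxygen-sensing hydroxylases, egln1b was higher in transected guts, at 57.4, 61.9 and 53.1 CPM against 37.2, 49.9 and 43.8 CPM. The groups did not overlap, and the log2 fold change of 0.40 (SE 0.13) did not pass (adjusted p = 0.534 in edgeR and 0.446 in DESeq2). egln3 was at 8.07, 4.24 and 5.13 CPM in transected and 5.18, 9.26 and 9.56 CPM in control guts. It shared the reversed replicate 1 libraries of nfe2l2b, and its log2 fold change of -0.46 became -1.01 without them and passed in edgeR (adjusted p = 0.808 and 0.0453). It was -0.78 without transected replicate 1, -0.69 without control replicate 1 and -0.27 without transected replicate 2. The 2 egln genes, which encode enzymes of the same reaction, thus lay on opposite sides of 0, although the difference between them was not tested.

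vhl, the ubiquitin ligase subunit that recognises hydroxylated HIF, overlapped at 5.96, 3.07 and 4.96 against 7.24, 4.56 and 4.48 CPM. Its log2 fold change of -0.22 turned to 0.01 without transected replicate 2 and 0.05 without control replicate 1. Its relative vhll was at 2.42, 3.07 and 2.16 against 2.18, 2.09 and 1.77 CPM, and the HIF asparaginyl hydroxylase gene hif1an at 20.9, 17.2 and 18.9 against 17.8, 15.7 and 17.5 CPM. Both overlapped, with log2 fold changes of 0.34 and 0.16.

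The replicate 1 libraries differed from the others in members and over all genes, with the balance of directions reversed. With each member's replicate 1 level compared with the mean of replicates 2 and 3 in its own group, 18 of the 64 were higher in both groups, 28 lower in both, and 18 split. Of the 11466 genes tested, 4154 were higher in both, 3560 lower in both and 3752 split. Both groups had the same sign for 71.9% of members and 67.3% of all genes. Across the members, which are not independent of each other, the replicate 1 difference had a Pearson's r of 0.54 between control and transected guts, against 0.45 over all genes tested. Over all genes this r was 0.512 for replicate 2 and 0.177 for replicate 3, so a shared deviation is not particular to replicate 1. The members were not compared in this way for replicates 2 and 3. txnipb and hmox1a were the members highest in both replicate 1 libraries, by 2.05 and 1.11 on the log2 scale in controls and 1.80 and 1.06 in transected guts. nfe2l2b and egln3 split the most, at 1.53 and 0.78 in transected against -0.49 and -0.85 in control guts. hif1al split the other way, at -0.96 against 0.20.

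**Figure D4:**
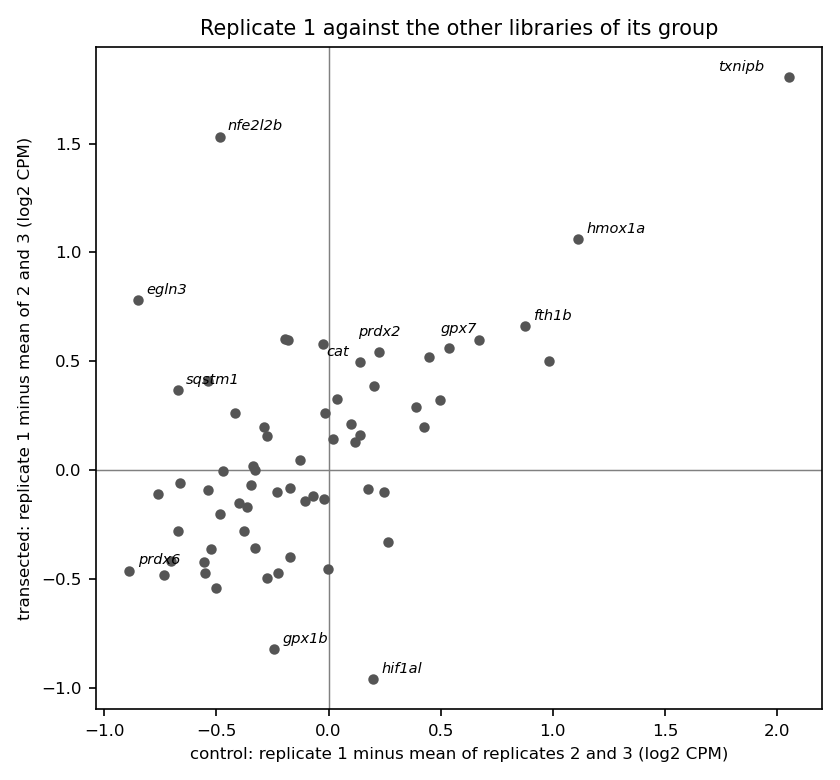
Difference between replicate 1 and the mean of replicates 2 and 3 (log2 CPM) in control guts (horizontal axis) and transected guts (vertical axis), 1 point per member tested. txnipb and hmox1a lie at the upper right, nfe2l2b (1.53 in transected, -0.49 in control guts) and egln3 at the upper left, and hif1al at the lower right.

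Markers of lysosome-rich enterocytes, the cells of the mid-intestine that take up and digest protein, shared a replicate 1 pattern with nfe2l2b, keap1b, sqstm1, gclm and egln3. Their 7 genes summed to 4265, 2534 and 1762 CPM in transected and 2877, 6696 and 5019 CPM in control guts. In this sum, as in those 5 members, replicate 1 was the highest transected and the lowest control library. Of the 7 genes, 6 had a negative log2 fold change and 4 were called lower by DESeq2, namely dab2, ctsbb, lgmn and ctsh (added after their values were seen). edgeR called 0 of them, and these 4 had an unadjusted p under 0.05 in it. Over all genes, DESeq2 called 0.584% lower, and 3.55% were lower at an unadjusted p under 0.05 in edgeR. Smooth muscle markers showed the same replicate 1 pattern, with sums of 3451, 2638 and 2095 CPM in transected and 1939, 3222 and 2723 CPM in control guts. The members msra, msrb3, hmox2a and txndc17 showed it too, so it is particular neither to lysosome-rich enterocytes nor to the members named above. The part of either cell type in the levels of the members was not tested.

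Without both replicate 1 libraries, edgeR called 5 of the 64 members: gpx1b higher and nfe2l2b, keap1b, gclm and egln3 lower. These are 1.56% of members higher and 6.25% lower, against 0.866% and 1.5% of all genes (2.37% in all) in that comparison of 2 against 2 libraries. At an unadjusted p under 0.05 it had 5 members higher and 24 lower, against 9.05% and 10.2% of all genes (19.2% in all). The median log2 fold change of the members was -0.19, against 0.01 over all genes. Among members that did not pass in edgeR, the log2 fold change went, from all 6 libraries to these 4, from -0.20 to -0.39 for prdx1, -0.13 to -0.28 for gclc, -0.22 to -0.53 for msra, -0.26 to -0.49 for msrb3 and -0.22 to -0.39 for hmox2a. sod3a, called by DESeq2 with 6 libraries, had -0.80 here and an adjusted p of 0.0891 in edgeR. In nfe2l2b, keap1b, gclm and egln3 the replicate 1 pair had the opposite sign to the other pairs, so leaving it out removed that disagreement. Replicates 2 and 3 were not left out as pairs in turn, so how far these calls depend on the pair left out is not known.

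**Figure D5:**
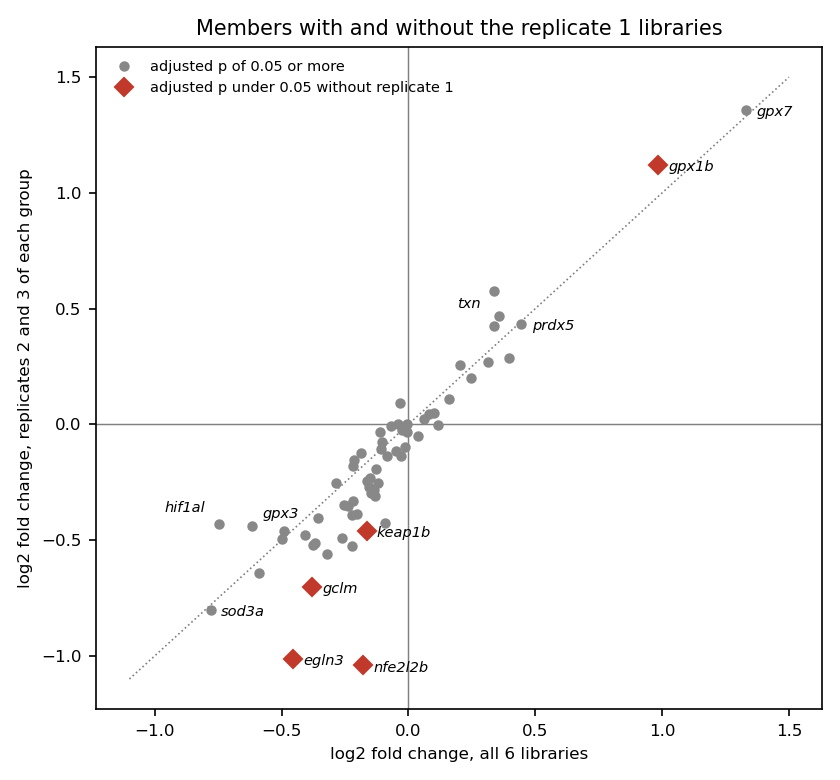
Log2 fold change of each member with all 6 libraries (horizontal axis) and with replicates 2 and 3 of each group (vertical axis); the dotted line marks equal values and diamonds mark an adjusted p under 0.05 without replicate 1. nfe2l2b moved from -0.18 to -1.04 and egln3 from -0.46 to -1.01, while gpx1b (0.98 and 1.12) and sod3a (-0.78 and -0.80) stayed near the line.

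With libraries taken in pairs of equal replicate number, 12 members were higher in the transected library of all 3 pairs and 16 lower. These are 18.8% and 25% of the members tested (43.8% together), against 20% and 17% of all genes (37% together). The 12 included gpx1b, prdx5, txn, egln1b and hif1an, and also gpx7, which passed the filter only through its transected libraries. The 16 included sod1, sod3a, cat, gpx3, msrb2, gsr, nqo1, nfe2l2a, hif1ab and hif1al. sod2, hmox1a, sqstm1 and nfe2l2b were among the members of mixed sign.

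Genes that work with these pathways without being members were read from fixed lists, and in each list edgeR called 0 genes. Of 15 tested partners and brakes of Nrf2, 11 were positive and 4 negative (median log2 fold change 0.04). Only 1 had an unadjusted p under 0.05 in edgeR, where 7.87% of all genes did. This was bach1b, a copy of the repressor that competes with Nrf2 at its target genes. It was at 17.0, 14.2 and 15.3 CPM in transected and 22.0, 21.1 and 26.9 CPM in control guts, without overlap (log2 fold change -0.59, SE 0.14, adjusted p = 0.412 in edgeR and 0.0533 in DESeq2). bach1a overlapped at 6.71 ± 0.133 against 7.09 ± 0.873 CPM. Without overlap, cul3a lay higher (log2 fold change 0.09) and gsk3ba lower (-0.25). In all, 3 of the 15 had groups that did not overlap, against 13.9% of all genes tested.

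Over all genes, DESeq2 called 0.846% higher and 0.584% lower, and with the replicate block 1.43% and 1.08%. These shares apply to each list below. Of 37 glutathione synthesis, transfer and export genes, 25 were negative (median log2 fold change -0.14), and DESeq2 called 1 higher and 1 lower. The exporter gene abcc4 fell in DESeq2, from 142 ± 7.77 to 103 ± 1.42 CPM (adjusted p = 0.00225, and 0.342 in edgeR). The gamma-glutamyl transferase gene ggt1a rose in DESeq2, from 3.05 ± 2.18 to 11.6 ± 5.08 CPM (adjusted p = 0.0471, and 0.508 in edgeR). Its libraries held 6.69, 16.8 and 11.4 CPM in transected and 5.42, 1.12 and 2.63 CPM in control guts, so that the replicate 1 libraries lay close together. Among 13 NADPH supply genes the malic enzyme gene me1 fell in DESeq2, from 31.5 ± 11.4 to 13.3 ± 1.72 CPM (adjusted p = 0.00353, and 0.387 in edgeR). Of 36 heme and iron handling genes 25 were negative, and DESeq2 called 2 lower, the heme exporter gene flvcr1 (adjusted p = 0.0278) and the transporter gene abcb6a (0.0354). With the replicate block, DESeq2 no longer called flvcr1 (0.0842) and called tfa, the gene for the plasma iron carrier transferrin, lower (log2 fold change -0.98, adjusted p = 0.000263, against 0.183 without the block). tfa is also one of the 13 hepatocyte markers, all of which had negative log2 fold changes, and the part of the liver in its value was not tested. Other oxidant defence genes had 29 of 37 negative values and 0 called by DESeq2. At an unadjusted p under 0.05, edgeR had 6 of them lower and 0 higher, against 3.55% and 4.32% of all genes. These counts describe the list and carry no test. The list of selenoproteins, their synthesis and selenium binding (15 of 24 negative), metal response genes (11 of 15) and hypoxia pathway partners (6 of 15) had 0 called by DESeq2. At an unadjusted p under 0.05 in edgeR they had 1 (selenbp1), 2 (slc39a13 and atox1) and 0, against 7.87% of all genes.

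The 54 HIF target genes tested were divided, with 23 positive, 31 negative and a median log2 fold change of -0.03. Of these, 5 lay wholly above and 5 wholly below the controls, against 7.48% and 6.38% of all genes tested. At an unadjusted p under 0.05, edgeR had 3 higher and 2 lower, against 4.32% and 3.55% of all genes. DESeq2 called 2 of the 54 higher and 0 lower, against 0.846% and 0.584% of all genes. The enolase gene eno1b rose in it from 6.41 ± 1.33 to 12.99 ± 2.57 CPM (adjusted p = 0.0197) and the hexokinase gene hk2 from 5.05 ± 0.719 to 10.6 ± 3.35 CPM (0.0471), where edgeR gave adjusted p of 0.387 and 0.415. With the replicate block, DESeq2 no longer called hk2 (0.0702) and called ddit4 higher (5.96e-07, against 0.319 without the block) and loxl2a lower (0.0179, against 0.738). Genes whose products make oxidants had the highest median of the 10 lists, at 0.20, with 14 of 22 positive. DESeq2 called 4 of them higher, against 0.846% of all genes, namely nox1, nos2a, cybb and noxo1b, the last named after its values were seen. With the replicate block, DESeq2 also called ncf1 higher (adjusted p = 0.0208, against 0.165 without the block) and hao1 lower (0.00319, against 0.182). At an unadjusted p under 0.05, edgeR had 8 of the 22 higher and 2 lower, against 4.32% and 3.55% of all genes. Of the 22, 4 lay wholly above and 1 wholly below the controls, against 7.48% and 6.38% of all genes tested. The list was chosen with earlier results of these data known, so its counts describe it and carry no test. The macrophage markers given beside gpx1b lay wholly higher in 7 of 9 cases and the neutrophil markers in 3 of 9, and the part of these cells in this list, which holds the phagocyte oxidase genes cybb and ncf1, was not tested. The difference between the oxidant sources and the antioxidant members was not tested.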

How the data were processed

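Values are raw read counts by gene symbol, as deposited by the authors without normalization. Per the labels' protocols, stranded mRNA libraries were sequenced as 100 bp paired-end reads, checked with FastQC 0.11.8 and aligned to danRer11. Which aligner, counter and gene annotation made the table is not given in the sources used here. Of the 70 member symbols, 68 were found as current and 2 as older names in RefSeq's gene table for GRCz12tu. That is not the build of the files, so coordinates are left out.

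Genes were filtered with filterByExpr (minimum count 10, total 15), scaled by TMM and fitted with edgeR 4.0.16 (robust quasi-likelihood, group only; R 4.3.3). Tests were two-sided, with Benjamini-Hochberg adjustment over all genes tested. Alternatives used DESeq2 1.42.0, limma-voom (limma 3.58.1), other scalings and filters, a replicate block and left-out libraries. The scripts were tested on simulated data for 11466 genes, in 3 against 3 libraries. Of 100 genes changed 2-fold, DESeq2 recovered 62%, edgeR 39% and limma-voom 30%. Of 100 changed 4-fold, the shares were 96%, 89% and 88%. Wrong calls were fewest in limma-voom (5), higher in edgeR (9) and most frequent in DESeq2 (31). The calls of gpx1b and sod3a with all 6 libraries came from DESeq2 fits only. CPM use TMM-scaled library sizes, pair and replicate differences are of log2 CPM (prior count 2), and intervals of counting error are not given. Relative to TMM, the median over all genes shifted on the log2 scale by -0.0093 with DESeq2 size factors and 0.0101 with library size scaling.

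Same-numbered libraries deviated together from their group means (Pearson's r 0.450, 0.512 and 0.177 over 11466 genes). The numbers were therefore taken as pairs in the blocked fits and the pair differences, while the main edgeR fit and limma-voom used group only. No 2 libraries of a group agreed within sampling noise (chi-square of 26.4 to 243 for each degree of freedom). P-values measure the spread between these pools, which may be technical. Whether near-identical gene copies shared reads was not examined.

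Members and lists were chosen with earlier results of these data known. Described library by library were members that passed in a fit of all 6 libraries, members with non-overlapping groups and an unadjusted p under 0.05, and the regulators. From the lists, up to 4 non-overlapping genes of at least 1 CPM with the smallest p could be named. gclm, cat, gsr, nqo1, gpx4a, hmox1a, prdx2, sqstm1, glrx5, txnipb and txnrd3, the genes whose call the replicate block changed, and the genes given as examples, were added after their values were seen.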

Additional observations from a re-analysis of the deposited data

How the results depend on the processing

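In edgeR 2 genes were higher and 0 lower over all genes, and 0 members passed. DESeq2 called 97 genes higher and 67 lower, among them 1 member each way. With the replicate block, DESeq2 called 164 and 124 genes, again with 1 member each way, and edgeR called 3 and 1 genes and 0 members. limma-voom called 0 genes, and edgeR at an adjusted p under 0.01 also 0. Leaving out single libraries gave 0 to 4 genes higher and 0 to 1 lower, with 0 members in each of the 6 fits. Without both replicate 1 libraries edgeR called 99 genes higher and 172 lower, with 1 and 4 members. The other scalings and filters left the gene counts at 2 and 0 and the member counts at 0. Of the members followed through the alternatives, nfe2l2b and vhl changed sign and the others kept theirs. Leaving out single libraries gave log2 fold changes from -0.90 to 0.090 for nfe2l2b, with 0.06 without transected replicate 3, and from -0.44 to 0.047 for vhl, with 0.0074 without transected replicate 2. The cause was not tested. The replicate block changed no member's call within edgeR or within DESeq2. Depth limits the members gpx2, gpx7, gpx9, mt2, hif1aa and hif1al2, which had few counts.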
